A study of Mus musculus with 8 samples.

Results

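The genes of the cornified envelope and of the epidermal differentiation complex were examined in hair follicle stem cells of the bulge, the resting part of the follicle that renews the hair. They were chosen by name and not by level: every gene whose symbol belongs to the Sprr, Lce or S100a families, together with 18 named genes of the envelope and of the junctions that hold cornified cells together. This gave 76 of the 46517 gene rows of the expression table, under 69 symbols, because Flg stood in 8 rows. RNA had been sequenced from 8 libraries of back skin cells of male mice at postnatal day 70, in the second telogen, the resting phase of the hair cycle, with 2 libraries in each of 4 groups. WT mice (animals 34 and 82) carried NFIBfl/fl, NFIXfl/fl and R26-YFPfl/fl and no Cre. NFIB-cKO mice (81 and 85) carried Sox9-CreER, NFIBfl/fl and R26-YFPfl/fl. NFIX-cKO mice (32 and 88) carried Sox9-CreER, NFIXfl/fl and R26-YFPfl/fl and also 1 floxed Nfib allele (NFIBfl/+). NFIB/X-dKO mice (33 and 36) carried Sox9-CreER, NFIBfl/fl, NFIXfl/fl and R26-YFPfl/fl. Every group thus had the R26-YFP reporter. The sort kept living cells with integrin alpha 6 and CD34 on their surface and without Sca-1, and a further gate on YFP was used for the knockout cells and not for the WT cells. Nfib and Nfix encode nuclear factor I transcription factors, which the series title links to chromatin accessibility in stem cells.

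The cornified envelope is a shell of cross-linked protein that replaces the plasma membrane as an epidermal keratinocyte dies. Transglutaminases join loricrin, involucrin, small proline-rich proteins (SPRR) and late cornified envelope proteins (LCE) into it, filaggrin packs the keratin filaments inside, and corneodesmosomes hold the dead cells together until kallikreins cut them. Bulge stem cells lie in the basal layer and do not cornify, and most of these genes are known as markers of the upper epidermis.

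Levels are given as TPM, transcript abundance on a scale that corrects for transcript length and sums to the same total in each library. Expected counts, for the 5 libraries with a gene table, summed to between 57173266 and 66854625, and no depth was known for NFIB-cKO 81 or the WT libraries. The labelled cell type showed its markers: Cd34 stood between 811 and 1144 TPM and Krt15 between 7507 and 14487 TPM in the 8 libraries. All 10 follicle stem cell markers of the list were tested and none was under 1 TPM in every library, with a summed level of 11682 to 20063 TPM. Of the 10, 3 fell in NFIB/X-dKO against WT: Krt24 (460 and 353 TPM in WT, 26.7 and 28.6 in NFIB/X-dKO), Lgr5 (121 and 129 against 38.6 and 44.8) and Lhx2 (291 and 314 against 104 and 122). The median of the 10 in that comparison was -0.57, against 0.16 over all genes. Of all genes, 2.88% passed the same test (limma, adjusted p under 0.05) in either direction. Krt24 also fell in NFIB-cKO (46 and 71.1 TPM). Nfib totals were not lower in the groups named for its loss (209 and 230 TPM in WT, 233 and 293 in NFIB-cKO, 377 and 389 in NFIB/X-dKO), and Nfix stood at 157 and 158 TPM in WT, 123 and 138 in NFIX-cKO and 125 and 148 in NFIB/X-dKO. The labels do not say which part of either gene is removed, so these totals check no label. The animal numbers fell into a run in the 30s (WT 34, NFIX-cKO 32, NFIB/X-dKO 33 and 36) and a run in the 80s (WT 82, NFIX-cKO 88, NFIB-cKO 81 and 85), and the libraries differed by run across the whole table. What the runs stand for is not in the labels. NFIB/X-dKO fell wholly in the 30s and NFIB-cKO wholly in the 80s, so a difference between those groups cannot be told apart from one between the runs.

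Most of the structural envelope genes were weakly expressed or silent. Of the 76 rows, 6 were at 0 TPM in every library and 26 never reached 1 TPM. A row was tested where 2 or more libraries reached 1 TPM, and 46 rows met this, of which 0 did so through 1 group alone. Among the 17 Sprr rows 5 were tested and 12 stayed under 1 TPM throughout, with Sprr3 and Sprr2c-ps at 0 in all libraries. Among the 21 Lce rows 8 were tested, and the 4 genes Lce3a, Lce3b, Lce3e and Lce3f were at 0 in all libraries. Repetin (Rptn) and cornulin (Crnn), which fuse an S100 domain to a long repeat like filaggrin, reached at most 0.04 and 0.19 TPM. In contrast, 11 of the 13 S100a genes, all 6 genes of secreted or suprabasal proteins and all 5 genes of corneodesmosome proteins and their proteases were tested.

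The S100 genes encode small calcium-binding proteins with many partners, and they dominated the RNA of the set. Their summed level lay between 17575 and 21147 TPM, of a sum of 22843 to 27541 TPM for all 76 rows. S100a6, the most abundant, stood at 10873 and 8692 TPM in WT, 10696 and 10348 in NFIB-cKO, 11355 and 11503 in NFIX-cKO and 13070 and 12195 in NFIB/X-dKO. The NFIB/X-dKO libraries were the highest of the 8 for this gene. S100a4 stood at 5251 and 5428 TPM in WT, 6683 and 3422 in NFIB-cKO, 3738 and 3023 in NFIX-cKO and 4563 and 5311 in NFIB/X-dKO. The highest value and one of the lowest came from the same group, NFIB-cKO.

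The next S100 genes were more even. S100a11 lay between 1203 and 1505 TPM in the 8 libraries, S100a10, the partner of annexin A2, between 1026 and 1387 TPM, and S100a14 between 417 and 593 TPM. The lowest S100a10 values were those of the NFIB/X-dKO libraries, 1103 and 1026 TPM, against 1387 and 1266 in WT. S100a16 lay between 239 and 347 TPM and was highest in NFIX-cKO 32 and WT 34. S100a1 lay between 105 and 160 TPM, with NFIX-cKO 88 lowest and WT 34 highest. S100a8 and S100a9, the pair known from inflamed epidermis and neutrophils, were low, at 0.47 to 2.72 and 0.58 to 3.46 TPM. Most myeloid and neutrophil markers were low too: 8 of 10, Lyz2, Ly6g, Elane and Mpo among them, were under 1 TPM in every library. The summed level of the list was 9.78 to 31.4 TPM. Most of it was Cd68 at 6.41 to 30.01 TPM, above S100a8 and S100a9. The 6 Langerhans cell markers were all tested and summed to 132 to 229 TPM, with Epcam the largest single part at 72.4 to 176 TPM. Cd74 stood at 9.49 to 41.4 TPM and Cd207 at 0.69 to 2.97 TPM. The part of these cells in the S100a8 and S100a9 values was not tested.

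Among the secreted and suprabasal proteins, dermokine (Dmkn) was the highest, with 2213 and 2910 TPM in WT, 2825 and 2806 in NFIB-cKO, 2533 and 3047 in NFIX-cKO and 2679 and 2462 in NFIB/X-dKO. The WT values spanned nearly the range of all groups. Calml3, a calmodulin-like calcium sensor of epithelia, stood at 991 and 779 TPM in WT, 998 and 917 in NFIB-cKO, 1491 and 964 in NFIX-cKO and 1316 and 1380 in NFIB/X-dKO. Suprabasin (Sbsn), a secreted protein of the suprabasal layers, stood at 805 and 882 TPM in WT, 836 and 760 in NFIB-cKO, 967 and 679 in NFIX-cKO and 719 and 721 in NFIB/X-dKO. Both its highest and its lowest value came from NFIX-cKO. Krtdap, a small secreted protein made by differentiating keratinocytes, stood at 580 and 517 TPM in WT, 446 and 600 in NFIB-cKO, 1132 and 583 in NFIX-cKO and 1384 and 1326 in NFIB/X-dKO. Both NFIB/X-dKO libraries were above all others, and NFIX-cKO 32 came next.

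The proteins of the envelope itself were a small share of the set. Loricrin (Lor), the main envelope protein of the epidermis, stood at 37.1 and 8.27 TPM in WT, 10.4 and 3.46 in NFIB-cKO, 43.0 and 8.63 in NFIX-cKO and 16.2 and 15.8 in NFIB/X-dKO. WT 34 and NFIX-cKO 32 were the high libraries, and WT and NFIX-cKO each held a high and a low library. Involucrin (Ivl), an early scaffold of the envelope, ranged from 4.96 TPM in NFIB-cKO 85 to 12.5 TPM in NFIX-cKO 32. Filaggrin 2 (Flg2) stood at 25.4 and 3.99 TPM in WT, 3.78 and 1.71 in NFIB-cKO, 23.9 and 4.28 in NFIX-cKO and 13.2 and 12.8 in NFIB/X-dKO, with the same 4 libraries on top as for loricrin. The 8 Flg rows, 7 of which have no entry in the GENCODE M21 annotation, summed to 9.58 and 2.66 TPM in WT, 4.62 and 1.5 in NFIB-cKO, 29.7 and 3.24 in NFIX-cKO and 15.9 and 17.4 in NFIB/X-dKO. Reads of this repetitive gene can be split between those rows, so their single values are uncertain. Hornerin (Hrnr), a related repeat protein, reached 2.96 TPM at most.

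Sprr1a, the leading small proline-rich protein gene, ran the other way. It stood at 32.1 and 77.3 TPM in WT, 71.5 and 82.5 in NFIB-cKO, 41.7 and 75.5 in NFIX-cKO and 39.9 and 43.7 in NFIB/X-dKO. The 4 libraries of animals in the 80s held the 4 highest values. Lce1m led the late cornified envelope genes, with 42.7 and 9.01 TPM in WT, 13.9 and 3.67 in NFIB-cKO, 35.9 and 14.0 in NFIX-cKO and 15.6 and 13.0 in NFIB/X-dKO. The other tested Lce genes stayed at or under 7.38 TPM and, as near copies of each other, may share reads.

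Corneodesmosomes were represented by Dsg1a, Dsc1 and Cdsn, which encode desmoglein 1, desmocollin 1 and corneodesmosin, and by Klk5 and Klk7, the kallikreins that cut them. Dsg1a stood at 60.6 and 31.7 TPM in WT, 24.4 and 20.8 in NFIB-cKO, 82.3 and 21.6 in NFIX-cKO and 73.8 and 69.7 in NFIB/X-dKO. Its 4 highest values were those of the animals in the 30s. Dsc1 (2.70 to 19.0 TPM) and Klk5 (2.01 to 21.2 TPM) were highest in NFIX-cKO 32 and lowest in NFIB-cKO 85. Klk7 spanned 6.99 to 37.2 TPM, from NFIB-cKO 81 to NFIX-cKO 32. Cdsn stood at 15.4 and 13.3 TPM in WT, 5.76 and 4.15 in NFIB-cKO, 21.2 and 7.78 in NFIX-cKO and 15.1 and 14.9 in NFIB/X-dKO, so NFIB-cKO was the low group.

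**Figure D1:**
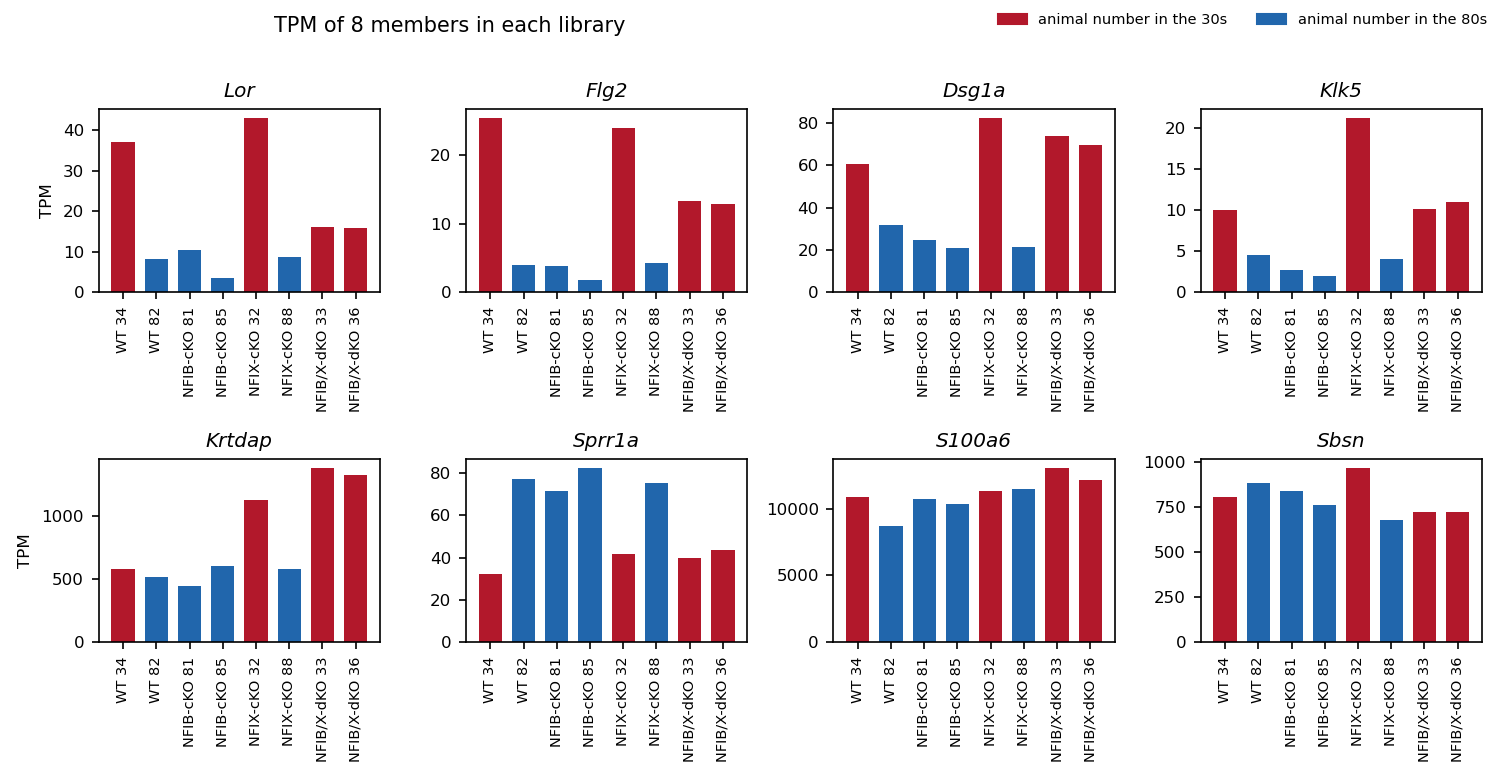
TPM of 8 genes in each library (bars, 1 library each, axes from 0), coloured by the run of the animal number. Lor, Flg2, Dsg1a and Klk5 are higher in the 4 libraries of the 30s than in the 4 of the 80s, Sprr1a is lower in the 30s, Krtdap is highest in NFIB/X-dKO (1384 and 1326 TPM), and S100a6 and Sbsn separate neither way.

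The design asked what the loss of Nfib, Nfix or both changed. No gene of the set passed the test in any of the 6 comparisons of groups (limma on log2(TPM + 1) over 15434 genes, adjusted p under 0.05). Among all tested genes, the share that passed against WT was 2.88% in NFIB/X-dKO, 0.719% in NFIB-cKO and 0.149% in NFIX-cKO. The share was 0.227% between NFIB/X-dKO and NFIB-cKO, 0.784% between NFIB/X-dKO and NFIX-cKO and 0.123% between NFIB-cKO and NFIX-cKO. At these rates a count of 0 among 46 is near the background. At an unadjusted p under 0.05 the same comparisons held 7, 2, 1, 10, 4 and 11 of the 46, against 16.8%, 12.6%, 6.81%, 17.2%, 14.5% and 11.9% of all genes. With 2 libraries in each group the intervals were wide, and a p above the threshold does not show that the groups were alike.

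Krtdap came nearest to the threshold. It stood at 549 ± 44.3 TPM in WT and 1355 ± 41.0 TPM in NFIB/X-dKO (SD, n = 2), a log2 difference of 1.30 ± 0.30 (SE, 95% interval 0.60 to 2.01, limma adjusted p = 0.0772). Against NFIB-cKO, at 523 ± 109 TPM, the difference was 1.39 ± 0.30 (limma adjusted p = 0.196). Within the 30s, against WT 34 alone, NFIB/X-dKO was higher by 1.22, in a fit that holds no spread between WT libraries. With the run as a covariate NFIB/X-dKO was higher than WT by 1.02 ± 0.25 (limma adjusted p = 0.0939). In a fit of WT and NFIB/X-dKO alone Krtdap passed the test (limma adjusted p = 0.0331), and it also did without either NFIX-cKO library (limma adjusted p = 0.0156 and 0.0155). The call thus turned on the NFIX-cKO pair, at 1132 and 583 TPM, which enters that comparison only through the shared estimate of spread.

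Other genes of NFIB/X-dKO against WT were further from the threshold. Of the 46 tested, 29 had a positive and 17 a negative difference, with a median of 0.21 against 0.16 over all genes, and the groups did not overlap for 28 of them, against 55.5% of all genes. Counts and medians of the 46, here and below, are over rows. Several of those rows are of Flg, between which reads can be split, so they do not count as separate genes. S100a13 was at 37.3 ± 0.66 TPM in WT and 49.8 ± 0.96 TPM in NFIB/X-dKO (0.41 ± 0.12, limma adjusted p = 0.160). Calml3 differed by 0.62 ± 0.22 (limma adjusted p = 0.225) and S100a6 by 0.38 ± 0.15 (limma adjusted p = 0.285). All 9 filaggrin-like rows and all 5 corneodesmosome genes had positive differences, none of which passed, and 7 of 8 Lce genes had negative ones. With the run as a covariate the 46 were 23 positive and 23 negative, with 7 of the 9 filaggrin-like rows and 1 of the 5 corneodesmosome genes positive, and against WT 34 alone they were 25 and 21, with 7 and 3 of those rows positive. Lor (-0.14 ± 0.88) and Flg2 (0.29 ± 0.91) were not resolved, with 37.1 and 8.27 TPM and 25.4 and 3.99 TPM in the WT pair.

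In NFIB-cKO against WT, 32 of 46 differences were negative, with a median of -0.21 against 0.00 over all genes, and 16 genes did not overlap (38.3% of all genes). With the run as a covariate 25 were negative and 21 positive, with a median of -0.04 against 0.11 over all genes, and against WT 82 alone 34 were negative. Cdsn had the smallest p: it stood at 14.3 ± 1.46 TPM in WT and 4.96 ± 1.14 TPM in NFIB-cKO, a difference of -1.37 ± 0.40 (limma adjusted p = 0.201). Against WT 82 alone, an animal of the same run, its difference was -1.28, in a fit that holds no spread between WT libraries. In NFIX-cKO against WT, 36 of 46 differences were positive, with a median of 0.23 against -0.05 over all genes, and 9 genes did not overlap (25.8% of all genes). The smallest p of that comparison belonged to a Flg row (limma adjusted p = 0.678), and S100a4 was at 5339 ± 125 TPM in WT and 3381 ± 506 TPM in NFIX-cKO (-0.67 ± 0.30, limma adjusted p = 0.758).

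Comparisons among the knockout groups also differ in the makeup of the runs. In NFIB/X-dKO against NFIB-cKO, which is also the 30s against the 80s, 35 of 46 differences were positive (median 0.47, 0.15 over all genes), and 29 genes did not overlap, against 72% of all genes. Dsc1 (2.07 ± 0.56, limma adjusted p = 0.253) and Cdsn (1.44 ± 0.40, limma adjusted p = 0.255) followed Krtdap in the order of p. In a fit of those 4 libraries alone 16 of the 46 passed, 15 higher and 1 (Sprr1a) lower in NFIB/X-dKO. In all, 2573 genes passed in that fit. In the fits of all 8 libraries none of the 46 passed, without or with the run as a covariate. With that covariate, whose size comes from WT and NFIX-cKO, 26 were positive and 20 negative (median 0.10, -0.07 over all genes). In NFIB-cKO against NFIX-cKO, 38 of 46 differences were negative (median -0.66, 0.06 over all genes), all 8 Lce genes among them, and 20 genes did not overlap (39.9% of all genes). Lce1a1 had the smallest p, with 6.13 ± 1.77 TPM in NFIX-cKO and 1.87 ± 1.36 TPM in NFIB-cKO (-1.37 ± 0.35, limma adjusted p = 0.292). Between these groups 37 of the 46 were negative with the run as a covariate (median -0.26, 0.17 over all genes). Within the 80s, in a fit with 1 NFIX-cKO library, 29 were negative (median -0.13, 0.16 over all genes). All 8 Lce genes were negative in both fits, while the median of the 46 was closer to that of all genes. In NFIB/X-dKO against NFIX-cKO the median was -0.02, against 0.19 over all genes, and 17 genes did not overlap (56.4% of all genes). With the run as a covariate 33 of the 46 were negative (median -0.27, 0.09 over all genes). Against NFIX-cKO 32 alone, within the 30s, 36 were negative (median -0.43, 0.09 over all genes), in a fit with 1 NFIX-cKO library. These comparisons share libraries, so their values are not independent of each other.

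Counts were available for NFIB/X-dKO and NFIX-cKO, and there 2 of the Lce1 genes passed by 1 tool and not by another. Lce1a1 had 191 and 141 expected counts in NFIX-cKO and 62 and 74 in NFIB/X-dKO, and Lce1a2 had 182 and 176 against 40 and 87. The groups did not overlap for either gene, and by TPM they did not for 56.4% of all tested genes. By edgeR's quasi-likelihood test neither passed (Lce1a1 -1.36, adjusted p = 0.207, and Lce1a2 -1.58, adjusted p = 0.273), and 0 of 51 genes of the set did, against 0.322% of 18349 genes, with 14 at an unadjusted p under 0.05 (14.7% of all genes). By DESeq2 4 of 52 with an adjusted p were lower in NFIB/X-dKO, against 2.53% of 19261 genes: Lce1a1 (-1.37 ± 0.39, adjusted p = 0.0144), Lce1a2 (-1.59 ± 0.49, adjusted p = 0.0319), Sprr2a2 (-1.46 ± 0.42, adjusted p = 0.0144) and Sprr2a1. Sprr2a1, with 34 and 19 counts in NFIX-cKO and 0 and 0 in NFIB/X-dKO, is a near copy of Sprr2a2 (751 and 697 against 380 and 177), and the split of reads between them is uncertain. Without NFIX-cKO 32 edgeR called 28 of 52 genes of the set, when it called 6939 of 19051 genes in all, and without NFIX-cKO 88 it called 14 of 53, when it called 1741 of 19108. Without either NFIB/X-dKO library it called 0 of the set and 0 of all genes.

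**Figure D2:**
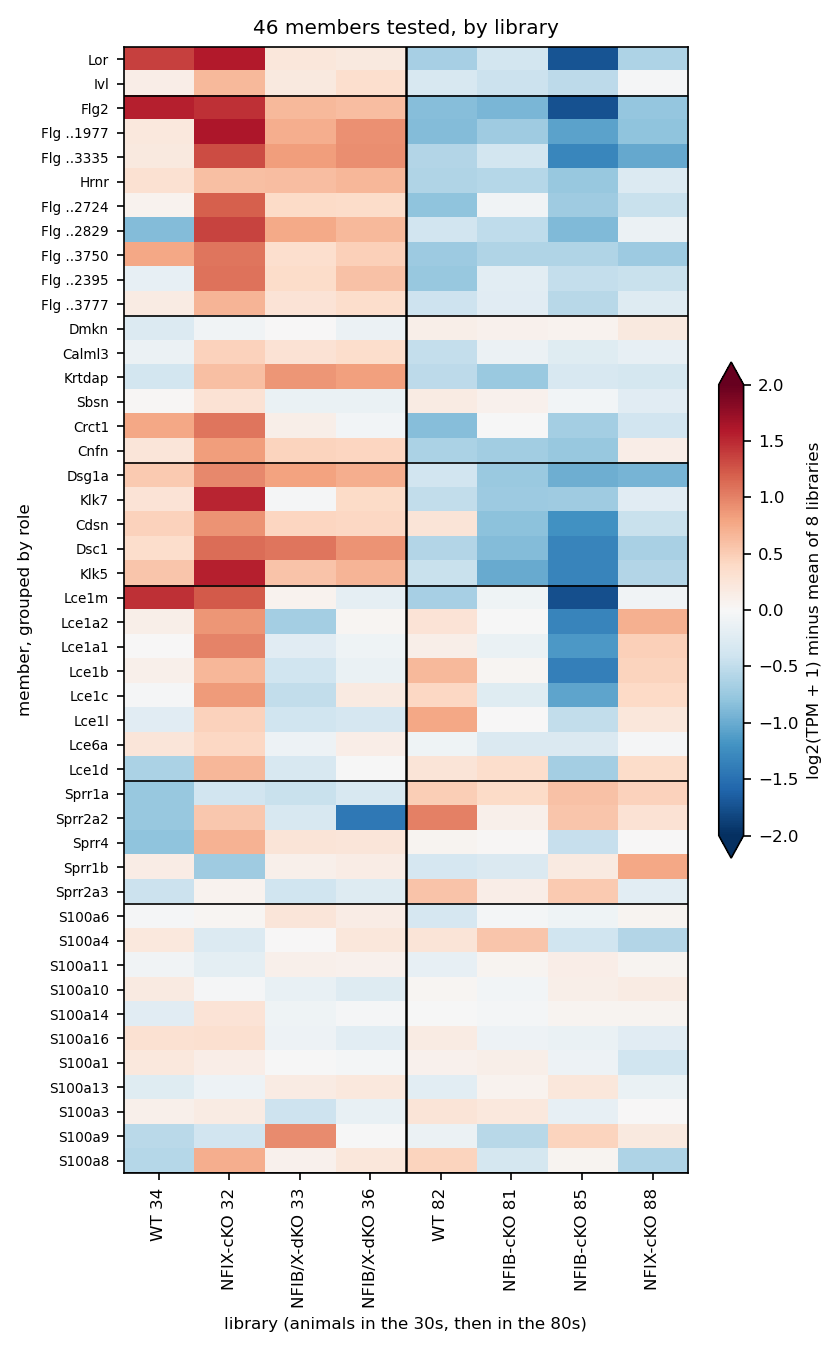
Log2(TPM + 1) of the 46 tested rows minus their mean over the 8 libraries (colour, limited at 2 on either side), with libraries of the 30s on the left and of the 80s on the right, and rows grouped by role. The filaggrin-like, loricrin and corneodesmosome rows are mostly high on the left and low on the right, the Sprr rows are mixed, and the S100 rows from S100a6 to S100a3 are pale throughout.

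The envelope genes also differed between the runs of animal numbers. In the fit with groups and run together, 15 of the 46 passed, 1 higher and 14 lower in the 80s, where 15.8% of all genes passed, 3.23% higher and 12.6% lower. The difference is estimated within WT and within NFIX-cKO, the groups that hold an animal of each run, so it rests on 4 libraries for its size and on all 8 for its error. The median over the 46 was -0.33, against -0.22 over all genes. After scaling by median-of-ratios factors, which moved the median of all genes to 0.00, the members' median was -0.09 and 8 passed, 2 higher (Sprr1a, Dmkn) and 6 lower (Flg2, Crct1, Hrnr, Cnfn, Dsg1a and 1 Flg row). Without a filter on low values 0 of 70 passed, when 29 of 32336 genes did. Leaving out WT 34, WT 82, NFIX-cKO 32 or NFIX-cKO 88 left 0, and leaving out NFIB/X-dKO 33 or 36 left 1 (Flg2), so the count rests on all 6 of these libraries. The whole table behaved alike: the 2435 genes that passed became 8 without WT 34, 8 without WT 82, 0 without either NFIX-cKO library and 135 without either NFIB/X-dKO library.

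By role, the falls in the 80s were in the filaggrin-like rows (5 of 9) and the corneodesmosome genes (4 of 5). They were also in the secreted or suprabasal genes (3 of 6) and in both loricrin and involucrin. Most of those filaggrin-like rows are rows of Flg, between which reads can be split, so they do not count as separate genes. None of the 11 S100 genes and none of the 8 Lce genes passed, and among the 5 Sprr genes Sprr1a rose. Flg2 had a difference of -2.32 ± 0.26 (95% interval -2.97 to -1.67, limma adjusted p = 0.0197). Its 4 values in the 30s lay between 12.8 and 25.4 TPM and its 4 in the 80s between 1.71 and 4.28 TPM. Lor differed by -2.12 ± 0.41 (limma adjusted p = 0.0352), with -2.04 in the WT pair and -2.19 in the NFIX-cKO pair. Sprr1a rose by 1.04 ± 0.13 (limma adjusted p = 0.0213). Dsg1a fell by 1.40 and Dsc1 by 1.34 on the log2 scale, and the proteases Klk5 and Klk7 fell by 1.57 and 1.26. Crct1, a cysteine-rich protein encoded beside the Lce genes, fell by 1.54. Ivl and Calml3 fell by 0.56 and 0.49, and for Calml3 the libraries of the runs overlapped. In all, the runs did not overlap for 18 of the 46 (2 higher and 16 lower in the 80s), against 32% of all genes (6.25% higher and 25.7% lower).

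Intervals were narrow for S100a6, S100a11, S100a13 and S100a14. S100a6 differed by -0.15 ± 0.14 between the runs (95% interval -0.49 to 0.19), S100a11 by 0.08 ± 0.11, S100a13 by 0.01 ± 0.09 and S100a14 by 0.00 ± 0.12. The intervals of these 4 genes exclude a change as large as that of Flg2 or Lor. Lce1m, at -1.71 ± 0.53 (limma adjusted p = 0.0724), did not pass, though it did without NFIB-cKO 81 or 85 (limma adjusted p = 0.0289 and 0.0287). Krtdap (-0.56 ± 0.22, limma adjusted p = 0.119) and Cdsn (-0.77 ± 0.28, limma adjusted p = 0.102) did not pass either.

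**Figure D3:**
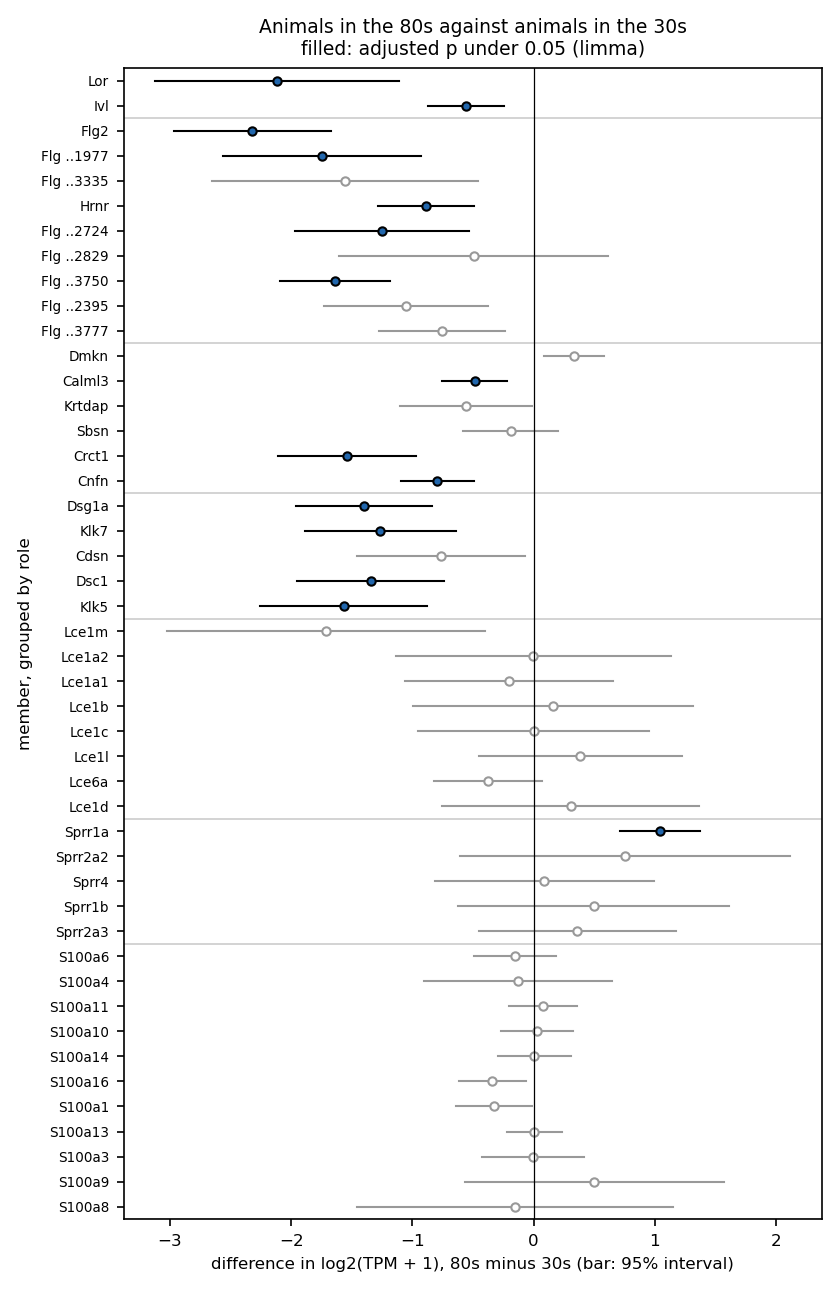
Difference in log2(TPM + 1) between animals in the 80s and in the 30s for the 46 tested rows (points, with 95% intervals), filled where the limma adjusted p is under 0.05. The 14 filled points left of 0 run from -2.32 (Flg2) to -0.49 (Calml3), Sprr1a (1.04) is the only filled point on the right, and S100a6 (-0.15) and S100a11 (0.08) lie close to 0.

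Genes of other skin layers were compared along the same split. The summed level of 8 suprabasal epidermis markers was 2022 and 1189 TPM in WT, 788 and 725 in NFIB-cKO, 3155 and 942 in NFIX-cKO and 2332 and 2232 in NFIB/X-dKO, with Krt2 under 1 TPM in every library. Of the 7 tested, 4 fell in the 80s, where 12.6% of all genes did: Krt10 (-1.43), Krt1 (-1.46), Krt77 (-1.51) and Krt78 (-1.33). Krt10, the keratin of cells that have left the basal layer, was at 1010 and 557 TPM in WT, 352 and 296 in NFIB-cKO, 1596 and 396 in NFIX-cKO and 1188 and 1102 in NFIB/X-dKO. Of 9 tested markers of the interfollicular basal layer and upper follicle, Plet1 rose (0.82) and none fell. Ly6a of that list, which encodes the Sca-1 antigen used for negative selection, did not pass (-0.93 ± 0.33, limma adjusted p = 0.0938): it stood at 37.0 TPM in NFIX-cKO 32, 28.7 and 24.4 TPM in NFIB/X-dKO and 6.46 to 11.9 TPM in the other 5 libraries, WT 34 of the 30s (11.9 TPM) among them. Of 6 inner bulge and companion layer markers 2 rose in the 80s, Krt6a (1.18) and Krt16 (1.81), where 3.23% of all genes did. Of the others, Bmp6 (-0.44) and Krt75 (-0.29) had negative differences and Fgf18 (0.86) and Timp3 (0.11) positive ones, and none passed. The list summed to 706 to 1527 TPM in the 30s and 1649 to 2529 TPM in the 80s. Most of it was Krt6a, at 631 to 2376 TPM in the 8 libraries. The part of these cells in the results above was not tested, and in bulk RNA fewer cells of a type and less RNA per cell cannot be told apart.

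Promoters of the genes at the ends of these comparisons are shown to place the sequence beside the values: Flg2 and Lor as the 2 members with the most negative differences between the runs, Sprr1a as the one that rose, and Krtdap as the nearest to the threshold between genotypes. Each is a window of 300 bases around the RefSeq start site on GRCm38.p6, written 5′ to 3′ on the strand of the gene, at chr3:93197023-93197322 for Flg2 (plus strand), chr3:92083093-92083392 for Lor (minus strand), chr3:92485832-92486131 for Sprr1a (minus strand) and chr7:30787655-30787954 for Krtdap (plus strand). Capitals mark matches to TGANTCA, the letters of an AP-1 element, and to TTGGC or its reverse complement GCCAA, 1 arm of the nuclear factor I element, and the 2 motifs share no letters here.
Flg2: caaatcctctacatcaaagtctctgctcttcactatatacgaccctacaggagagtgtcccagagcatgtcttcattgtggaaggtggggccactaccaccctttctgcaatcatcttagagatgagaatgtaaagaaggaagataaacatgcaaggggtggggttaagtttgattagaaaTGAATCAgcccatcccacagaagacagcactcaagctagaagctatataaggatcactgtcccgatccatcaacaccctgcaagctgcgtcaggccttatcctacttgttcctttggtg
Lor: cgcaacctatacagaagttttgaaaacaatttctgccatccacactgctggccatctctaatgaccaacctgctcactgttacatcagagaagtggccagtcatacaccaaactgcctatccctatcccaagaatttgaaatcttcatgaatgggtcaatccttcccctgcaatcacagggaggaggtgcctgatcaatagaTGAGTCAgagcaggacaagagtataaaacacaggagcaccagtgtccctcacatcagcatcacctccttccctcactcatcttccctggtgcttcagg
Sprr1a: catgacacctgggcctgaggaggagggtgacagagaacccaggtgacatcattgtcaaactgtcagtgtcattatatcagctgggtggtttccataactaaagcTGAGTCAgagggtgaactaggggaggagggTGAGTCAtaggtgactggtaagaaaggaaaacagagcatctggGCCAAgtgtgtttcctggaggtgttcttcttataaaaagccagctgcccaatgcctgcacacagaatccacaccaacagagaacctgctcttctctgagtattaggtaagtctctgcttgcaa
Krtdap: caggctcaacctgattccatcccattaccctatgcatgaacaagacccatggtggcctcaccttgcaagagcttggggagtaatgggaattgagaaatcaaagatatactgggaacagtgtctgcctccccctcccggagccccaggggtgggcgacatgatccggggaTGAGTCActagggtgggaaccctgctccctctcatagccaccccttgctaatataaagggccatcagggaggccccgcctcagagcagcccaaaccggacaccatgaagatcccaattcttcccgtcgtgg

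The AP-1 letters, with any base allowed in the middle, began 69 bases before the start of Flg2, 48 before Lor and 81 before Krtdap. They began 146 and 116 before Sprr1a, which also held GCCAA 73 bases before its start. The middle base was A in Flg2 and G in Lor, Krtdap and Sprr1a. RefSeq promoters were found for 58 of the 69 symbols, giving 65 windows, and TGANTCA was in 22 of them, against 7.81% of 32841 promoters of the same length searched on both strands. Of the 7 windows of members that fell in the 80s, 3 held it (Flg2, Lor and Ivl). The RefSeq window of Flg belongs to the Flg row with an annotation entry, which was too low to be tested, and is not among these 7. The full palindrome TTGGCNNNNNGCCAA was in 0 of the 65 windows and in 0.0365% of all promoters, and the TTGGC arm in 22 of 65, against 46.7% of all. TATAAA was in 25 of 65, against 13.6%. Many of these windows belong to near copies of 1 gene, so they are not independent, and a match to such short letters is a description of sequence, with no binding measured here.

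Position within the gene cluster was set beside level. On chromosome 3 of GRCm38, 59 rows lay between base 90511034 (S100a1) and base 93564643 (S100a10), a span of 3054 kb, while 10 rows lay elsewhere and 7 Flg rows had no entry. The S100 genes form both ends of the span and held its highest levels. Between them, Lor, Ivl, Crct1, Lce1m, Flg2 and Hrnr had negative differences between the runs, from -0.56 (Ivl) to -2.32 (Flg2), while Sprr1a, located between Lor and Ivl, was at 1.04. Neighbours in the cluster thus went in opposite directions.

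**Figure D4:**
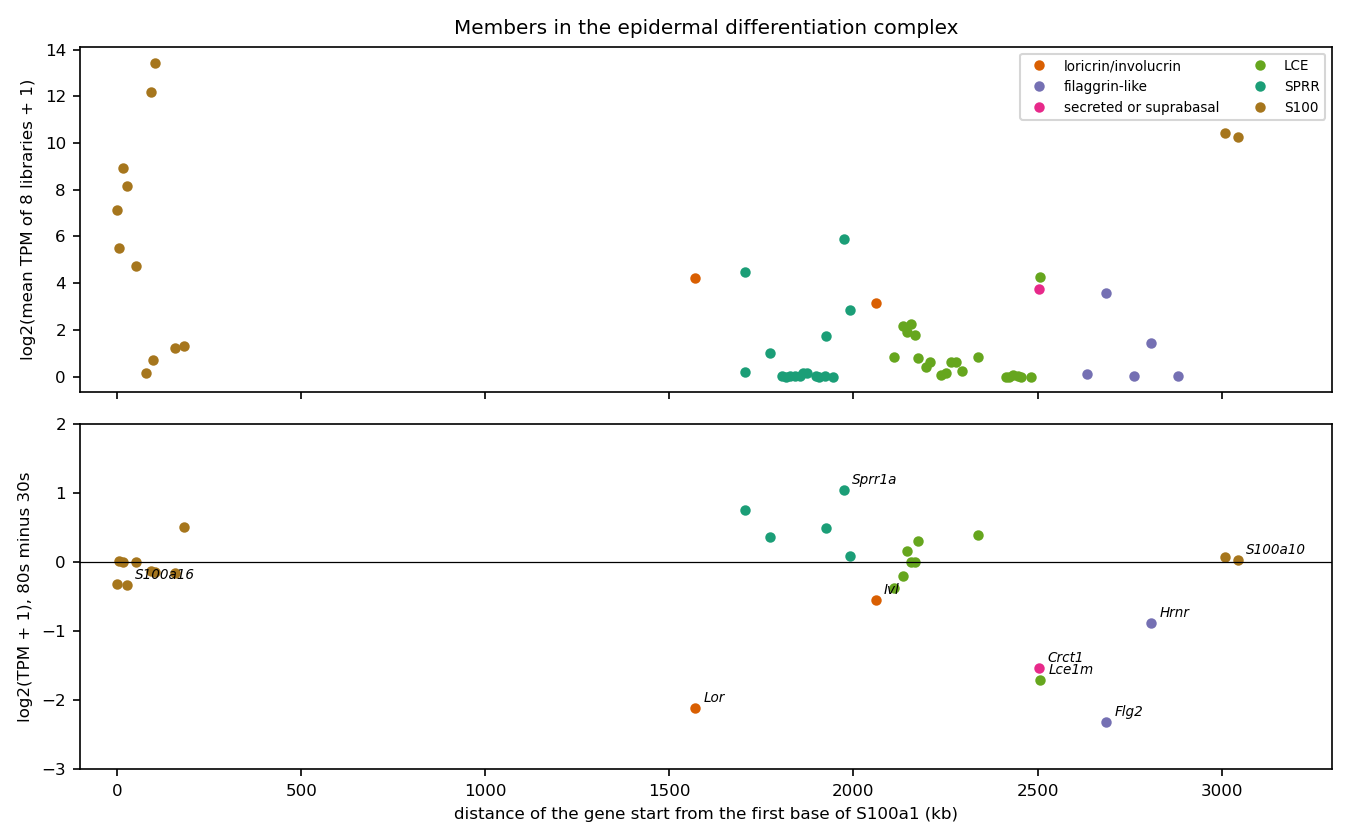
Members on the epidermal differentiation complex by distance from S100a1 (kb), with log2(mean TPM of 8 libraries + 1) above and the difference between the runs below, coloured by role. The highest levels are those of S100 genes at both ends, and S100a10 lies near 0 below (0.03), while Lor (-2.12), Flg2 (-2.32) and Crct1 (-1.54) lie low in the interior and Sprr1a (1.04) lies high.

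Genes that act with the envelope were counted from lists outside the set. Of 17 tested genes of other envelope enzymes and substrates, 1 passed against WT in NFIB/X-dKO and in NFIB-cKO, and it was Tgm5, a transglutaminase, in both. Tgm5 stood at 626 and 580 TPM in WT, 330 and 256 in NFIB-cKO, 512 and 455 in NFIX-cKO and 105 and 112 in NFIB/X-dKO. It was lower by 2.47 ± 0.15 on the log2 scale in NFIB/X-dKO than in WT (limma adjusted p = 0.00139), and NFIB-cKO differed from WT by -1.05 ± 0.15 (limma adjusted p = 0.0370). The groups did not overlap in either comparison, nor did they for 55.5% and 38.3% of all genes. Sebaceous gland markers were also lower in these groups: of 8 tested, 6 fell in NFIB/X-dKO against WT (median -2.59). In NFIB-cKO against WT 3 fell (median -1.78). Over all genes, 2.88% and 0.719% passed in these comparisons in either direction, with medians of 0.16 and 0.00. The list of 10 summed to 219 and 377 TPM in WT, 83.7 and 97.5 in NFIB-cKO, 182 and 168 in NFIX-cKO and 64.6 and 64.0 in NFIB/X-dKO, with Mc5r under 1 TPM in every library. The part of sebaceous cells in the Tgm5 result was not tested. In the 80s against the 30s, 4 of those 17 fell, where 12.6% of all genes did, a share that rests on the 6 libraries named above: Casp14 (-1.38), a protease that processes filaggrin, Abca12 (-1.11), a lipid transporter of lamellar granules, Kprp (-0.84) and periplakin (Ppl, -0.55).

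Of 11 other desmosome genes, Dsc2 rose in NFIB/X-dKO against WT, from 1.60 and 2.91 TPM to 6.27 and 6.52 TPM (1.21 ± 0.24, limma adjusted p = 0.0475), and in the 80s Dsp (-0.64) and Dsg3 (-0.57) fell. Of 10 other proteases and inhibitors, Klk14 rose in NFIB/X-dKO against WT (1.64 ± 0.28, limma adjusted p = 0.0327), and Klk8 (-1.38), Klk10 (-0.98) and Spink5 (-0.89), an inhibitor of kallikreins, fell in the 80s. Of 28 regulators of epidermal differentiation none passed in any comparison of groups, while in the 80s Klf4 (1.18) was among those that rose, and Trp63 (-0.55) and Grhl3 (-0.95) fell. Klf4, a transcription factor needed for the skin barrier, was lowest in NFIX-cKO 32 (681 TPM) and highest in WT 82 (3276 TPM). Of 7 other S100 genes and S100 partners, Anxa1 (0.58) and Ager (0.71) rose in the 80s, and none passed between groups. Of all tested genes, 12.6% fell and 3.23% rose in the 80s, and 2.88% passed in NFIB/X-dKO against WT in either direction. The calls between the runs rest on the 6 libraries named above.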

How the data were processed

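RNA sequencing was analysed for 8 libraries in 4 groups of 2, taken from the titles. The authors deposited TPM for all 8 libraries and, for 5 of them, gene tables with expected counts and transcript lengths. Per the submitters' processing notes, RSEM 1.2.30, Bowtie2 2.2.9 and the build mm10 (GRCm38) were used. The annotation release was not given in the sources used here. TPM was equal in both kinds of file (largest difference 0), and 0 columns were unmapped. Spike-in rows (92) held 0% of the TPM and were left out. The deposited transcript lengths entered no test.

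Log2(TPM + 1), a pseudocount of 1, was tested in R 4.3.3 with limma 3.58.1, with a variance trend and Benjamini-Hochberg adjustment over the 15434 genes that reached 1 TPM in 2 or more libraries. All 8 libraries were fitted together (residual degrees of freedom 4, prior 3.10). This scale understates changes of low genes. The authors' expected counts, rounded, were tested with edgeR 4.0.16 (quasi-likelihood, TMM), with DESeq2 1.42.0 as an alternative. The comparison of animal runs added a term to the limma fit. The steps were tested on simulated data.

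Named genes were those past the test between groups (none), the 12 with the highest mean TPM and the highest of each role. Others, such as those past the comparison of runs, Cdsn, Lce1a1 and S100a13, were chosen after their values were seen. For 1 gene of the lists, no result is reported here. Members and lists were chosen with earlier results of these data known. Nothing says more of the replicates than separate animal numbers, and p-values measure the spread between these libraries. Replicate libraries had the same TPM in 0.836% to 1.21% of genes, so none was counted as a copy. Alternatives were another pseudocount, no filter, median-of-ratios scaling, a run covariate, fits within a run or of the compared groups alone, and leaving out each library. Sequences are from RefSeq (GRCm38.p6) and gene positions from GENCODE M21.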

Additional observations from a re-analysis of the deposited data

Results flagged for a closer look

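The difference between animals in the 80s and in the 30s went opposite ways in the 2 genotypes that hold both runs for 2 of the tested genes. Lce1f, too low to be tested, also did (0.69 in WT and -0.60 in NFIX-cKO). For Sprr4, a small proline-rich protein gene, it was 0.86 in WT (2.91 TPM in animal 34 and 6.09 TPM in 82) and -0.69 in NFIX-cKO (10.1 TPM in 32 and 5.87 TPM in 88), on the log2(TPM + 1) scale. For S100a8 it was 1.03 in WT and -1.34 in NFIX-cKO, at levels from 0.47 to 2.72 TPM. These were taken from differences of at least 0.5 in each direction, with 1 library on each side, and the difference between the genotypes was not tested.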

How the results depend on the processing

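In the 6 comparisons of groups the count of 0 members past the test was the same with a pseudocount of 0.1, without a filter, after scaling, with the run as a covariate and, where a run held both groups, within a run. It was 1 for NFIB/X-dKO against WT and 16 for NFIB/X-dKO against NFIB-cKO in fits of the compared groups alone. Leaving out each library gave 0 to 1 for NFIB/X-dKO against WT, 0 to 1 for NFIB-cKO against WT (Cdsn, without either NFIX-cKO library) and 0 to 2 for NFIB/X-dKO against NFIB-cKO (Krtdap and Cdsn, without either NFIX-cKO library). Between the runs the 15 became 16 with a pseudocount of 0.1, 8 after scaling and 0 without a filter, where more genes share the adjustment, and 0 to 16 when each library was left out. For expected counts the 0 by edgeR became 4 by DESeq2 and 0 to 28 when each library was left out (6939 of 19051 genes passing in all without NFIX-cKO 32, where 28 did). Where an alternative left 1 library in a group, that library was assumed to vary like the other groups. Other causes were not tested. For the named genes, 1490 alternative values stayed on their side of the threshold, 111 lost the call and 13 gained one. Of differences past the test 0 changed sign, and of 1449 alternative values of those not past it 119 did, such as Flg2 in NFIB/X-dKO against WT (0.29, and -0.91 within the 30s). No paired analysis was possible because no label ties an animal of one group to one of another. A fit of NFIX-cKO against WT with the run as a replicate block, which pairs runs and not animals, called 0 members. Depth was unknown for 3 libraries, and 12 of the 17 Sprr rows and 10 of the 21 Lce rows were under 1 TPM in every library.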
